A study of Rattus norvegicus with 20 samples.

Results

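The effect of NMDA-triggered spasms on the arcuate nucleus was examined in female Sprague-Dawley rats exposed to betamethasone before birth, by comparing 4 rats with spasms (BYS) and 4 rats without (BNS). These 8 samples are part of 20 samples of 5 conditions, were chosen by the group letters of the sample title, and make up both sides of the comparison. In both groups the mother had received betamethasone, a synthetic glucocorticoid, at 0.4 mg/kg per injection on gestational day 15, and both groups received postnatal saline and were profiled on postnatal day 15. BYS rats received NMDA, the agonist that gives the NMDA type of glutamate receptor its name, on postnatal days 12, 13 and 15, the last of these on the day of profiling. BNS rats received saline instead of NMDA. Betamethasone was therefore shared by both groups, and the comparison holds the repeated NMDA injections and the spasms together. The litter of each sample was not given in the labels. The limma p-values measure the spread between samples within groups, pooled over all 20 samples, which may share litters.

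Opening of NMDA receptors lets calcium into neurons, and the calcium switches on immediate early genes within minutes to hours. Their products are transcription factors of the FOS, JUN, EGR and NR4A families and the cytoskeletal protein ARC, so their mRNA is widely used as a trace of recent neuronal activity. Seizures also raise corticosteroids in blood, which act on their own set of target genes, and can activate astrocytes and microglia, which release cytokines and complement proteins. The arcuate nucleus is a hypothalamic centre for feeding and endocrine control beside the median eminence, and its neurons make AgRP, NPY, POMC and CART peptides.

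RNA from the 8 rats was labelled with Cy3 or Cy5 and read on 4 two-colour arrays, with 2 rats of the same group on each array. BYS replicates 1 and 2 shared 1 array and BYS replicates 3 and 4 another, and BNS was laid out in the same way. Both BYS arrays were on 1 slide and both BNS arrays on another, so slide and group cannot be told apart. Signals were of like quality, with a median ratio of signal to background of 16.0 in both groups (from 14.0 to 19.8 in BYS and from 14.1 to 19.9 in BNS) and with 72.8% to 84.5% of spots well above background in BYS and 67.7% to 81.2% in BNS. Samples on the same array differed by a root mean square of 0.274 on the log2 scale over all genes. Samples of 1 group on different arrays differed by 0.323 and samples of different groups by 0.326. The mean log2 levels of the arcuate peptide genes in BNS were 14.79 for Npy, 14.82 for Agrp, 14.50 for Pomc and 13.24 for Cartpt. Single BNS samples ranged from 14.02 to 15.38 for Npy and from 13.88 to 16.03 for Agrp. The range was 14.16 to 15.02 for Pomc and 13.14 to 13.37 for Cartpt. These levels were not compared with another tissue, so they do not test the arcuate label.

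Of 17086 genes tested with limma, 5 differed between BYS and BNS at an adjusted p under 0.05 (0.0293% of genes). At an unadjusted p under 0.05, 1183 genes (6.92%) differed, 663 higher in BYS (3.88%) and 520 lower (3.04%). All 4 BYS values lay above all 4 BNS values in 434 genes (2.54%) and below them in 656 genes (3.84%). These shares are the background against which the counts in the gene lists below were read. The median log2 difference over all genes was 0.00083, with quartiles of −0.09 and 0.10. Changes in mRNA per cell and in the number of cells of a type cannot be told apart in these tissue samples.

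Timp3, which encodes an inhibitor of metalloproteinases bound to the extracellular matrix, was higher in BYS than in BNS. Its log2 levels were 9.89, 9.10, 9.70 and 9.82 in BYS replicates 1 to 4 and 8.72, 8.80, 8.51 and 8.57 in BNS. The groups did not overlap, although BYS replicate 2 lay closer to BNS than the other BYS samples. The fitted difference was 0.98 (SE 0.16, a 1.97-fold change, limma adjusted p = 0.0291). Of the other 19 matrix metalloproteinase and inhibitor genes tested, 1 had an unadjusted p under 0.05, and Timp1, an inhibitor secreted by reactive astrocytes, is described with those cells.

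Pnma2, a neuronal gene of the paraneoplastic antigen family, was at 11.24 ± 0.20 in BNS and 12.06 ± 0.18 in BYS (mean log2 level ± SD, n = 4). The lowest BYS sample, at 11.85, was above the highest BNS sample, at 11.44. Its fitted difference of 0.83 (SE 0.11) had a limma adjusted p of 0.0162. Klhl30, which encodes a kelch-like protein, was at 9.08 ± 0.05 in BNS and lower in BYS, at 8.59 ± 0.10 (adjusted p = 0.0261). The 4 SNS rats of the series, without prenatal betamethasone or spasms, lay on the BYS side of BNS for Timp3, Pnma2 and Klhl30. Their mean log2 level was 12.51 for Pnma2 and 8.41 for Klhl30. For Timp3 it was 9.09, against 8.65 in BNS and 9.63 in BYS. The cause was not tested. The taste receptor gene Tas2r110 and the olfactory receptor gene Or13m2 were the remaining calls (adjusted p of 0.0193 and 0.0324), but neither was well above background in any BNS sample, so that both entered the fit through BYS alone. They were not tested when detection in all 8 samples was required, which left 3 calls. Or13m2 was 1.56-fold higher in BYS with quantile and 1.55-fold higher with loess and Aquantile normalization. Tas2r110 was 1.64-fold higher with quantile and 1.69-fold higher with loess and Aquantile normalization. No bound is given for either gene. With each of the 8 samples left out in turn, the adjusted p ranged from 0.00201 to 0.141 for Timp3, from 0.00362 to 0.108 for Pnma2, from 0.0404 to 0.141 for Klhl30, from 0.0231 to 0.108 for Tas2r110 and from 0.0374 to 0.152 for Or13m2. None of the 5 was called without BNS replicate 1, 3 or 4, Pnma2 was the only one called without BNS replicate 2, and Tas2r110 the only one without BYS replicate 3. Pnma2 and Tas2r110 kept their calls without BYS replicate 1, Or13m2 lost its call without BYS replicate 2 and Timp3 without BYS replicate 4. With the array as a random block no gene was called by limma, and 554 genes had an unadjusted p under 0.05.

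**Figure D1:**
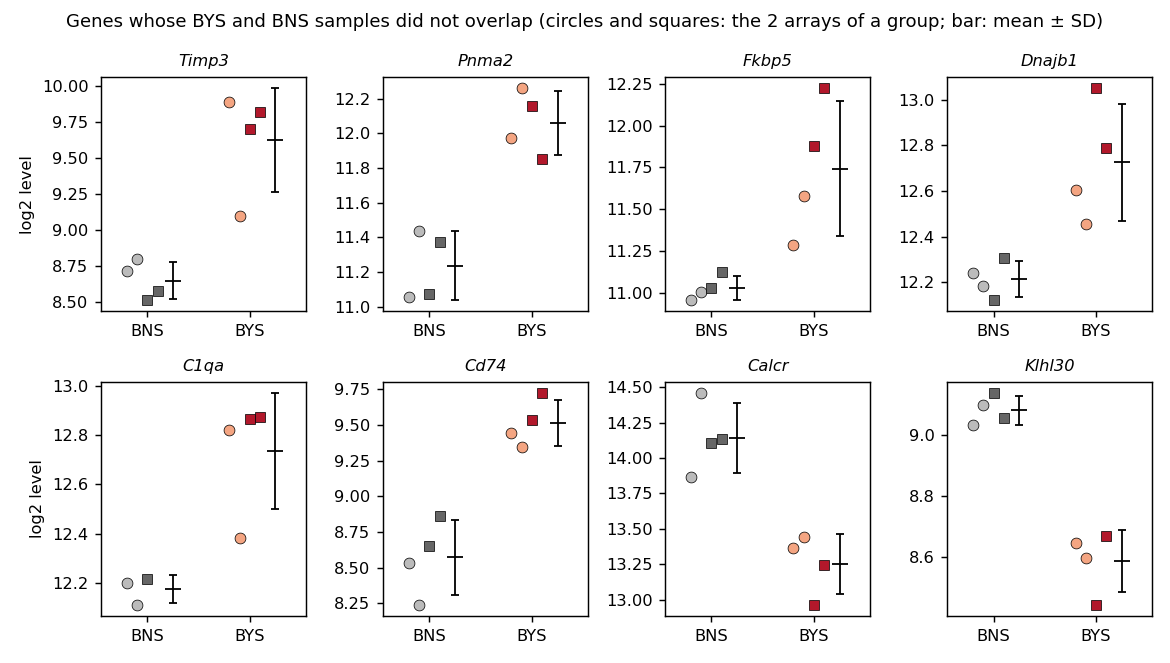
Log2 levels of 8 genes in each BNS and BYS sample. Circles are replicates 1 and 2, squares replicates 3 and 4 (the 2 arrays of a group), and the black marks are the mean ± SD of a group. In each panel all BYS samples lie on 1 side of the BNS samples. C1qa has 3 BNS points because 1 spot value was marked as an outlier.

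The gene lists were described by how many members differed and by their median, without a test of a list. The lists of immediate early transcription factors, glucocorticoid response genes, reactive astrocyte genes and cytokines had the highest medians of the 13 lists plotted, at 0.39, 0.34, 0.27 and 0.23. Activity-induced effectors had a median of 0.17, complement 0.14, astrocyte genes 0.12 and heat shock genes 0.10. Myelinating oligodendrocyte genes (0.05), the stress hormone axis (−0.01), microglia (−0.02) and tanycytes and ependyma (−0.05) lay between the quartiles of all genes, and red blood cell genes were at −0.28. Apart from Timp3, Pnma2, Tas2r110 and Or13m2, no member of any list had an adjusted p under 0.05, and the lowest was 0.114.

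**Figure D2:**
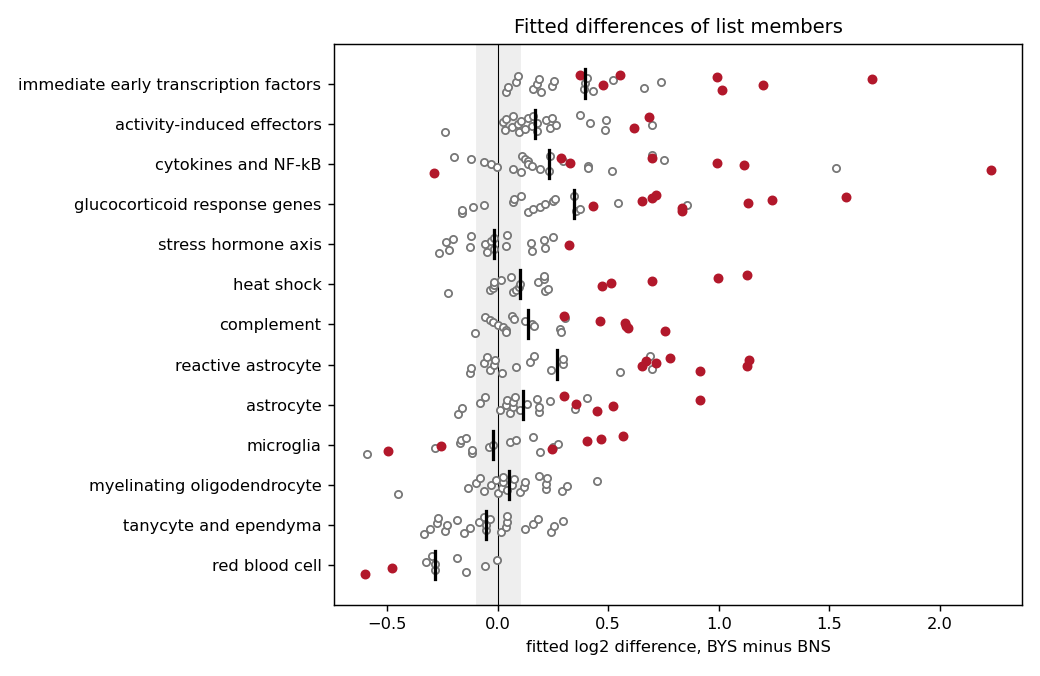
Fitted log2 differences (BYS minus BNS, log2 units) of the tested members of 13 gene lists. Filled red points had an unadjusted limma p under 0.05, open points did not, and the black bar is the median of the list. The grey band runs between the quartiles of all genes, from −0.09 to 0.10. All 24 immediate early transcription factors lie to the right of 0 and all 10 red blood cell genes to the left, which became 21 of 24 and 5 of 10 with channels scaled to a common median.

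Immediate early transcription factors are the first genes switched on by calcium and by growth signals. Of 27 listed, 24 were tested and 3 (Egr3, Fosl2 and Npas4) were not above background. All 24 had a positive fitted difference (21 with channels scaled to a common median), and 7 of 24 were higher in BYS at an unadjusted p under 0.05 (Fos, Jun, Atf3, Fosl1, Klf6, Ier2 and Myc), against 3.88% of all genes.

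Fos, the gene most used to map neuronal activity, had log2 levels of 8.86, 9.16, 11.04 and 10.47 in BYS replicates 1 to 4 and of 8.63, 8.79, 8.65 and 9.41 in BNS. BYS replicates 3 and 4, which shared an array, were above all BNS samples, while BYS replicates 1 and 2, on the other array, were within the BNS range. The fitted difference of 1.02 (SE 0.44) corresponds to a 2.02-fold higher level, with an adjusted p of 0.671. Atf3, a factor of the ATF/CREB family induced by stress and injury, showed the same separation by array. Its log2 levels were 7.81, 7.94, 10.31 and 10.24 in BYS and 7.88, 7.85, 7.78 and 7.98 in BNS. Fosl1, a further FOS family member, was at 7.39, 7.45, 10.73 and 10.61 in BYS. Of the 8 samples, only those last 2 were well above background, so that Fosl1 entered the fit through another condition. Its fitted level was 3.23-fold higher in BYS (limma adjusted p = 0.591). The 95% interval of its log2 difference ran from 0.35 to 3.04.

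Jun, the partner of FOS in the AP-1 factor, was less bound to 1 array. Its log2 levels were 11.43, 10.54, 11.63 and 12.04 in BYS and 9.99, 10.76, 10.56 and 10.36 in BNS, and BYS replicate 2 was the only BYS sample within the BNS range. The difference was 0.99 (SE 0.27, unadjusted p = 0.0019, adjusted p = 0.433 in the limma fit). With each of the 8 samples left out in turn, the adjusted p ranged from 0.0441, without BYS replicate 2, to 0.822. Klf6, a zinc finger factor, differed by 0.37 and was as high on 1 BYS array as on the other (0.37 and 0.37 above the BNS mean). Ier2, a nuclear protein induced by growth factors, differed by 0.55 and Myc, a factor that drives growth, by 0.48. For both, BYS replicates 3 and 4 were above all BNS samples and the BYS array of replicates 1 and 2 was 0.10 and 0.06 above the BNS mean.

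Junb, Egr4 and Egr1, which had no p under 0.05, were also above all BNS samples in BYS replicates 3 and 4 alone. Junb, a JUN factor, was at 12.85 and 12.40 in BYS replicates 3 and 4, at 10.66 and 10.62 in replicates 1 and 2 and between 10.65 and 11.45 in BNS. Egr4 was at 10.82 and 10.74 against 8.65 and 8.85, with BNS between 8.64 and 9.33. Egr1, the best known EGR factor, had a difference of 0.43 (SE 0.39) and Nr4a1, a nuclear receptor induced by activity, of 0.25 (SE 0.21). In Nr4a1 the highest of the 8 samples was BNS replicate 4, at 10.82. With the array of BYS replicates 3 and 4 left out, the differences of Junb, Egr4 and Egr1 turned to −0.33, −0.28 and −0.14 and that of Atf3 to −0.00095.

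**Figure D3:**
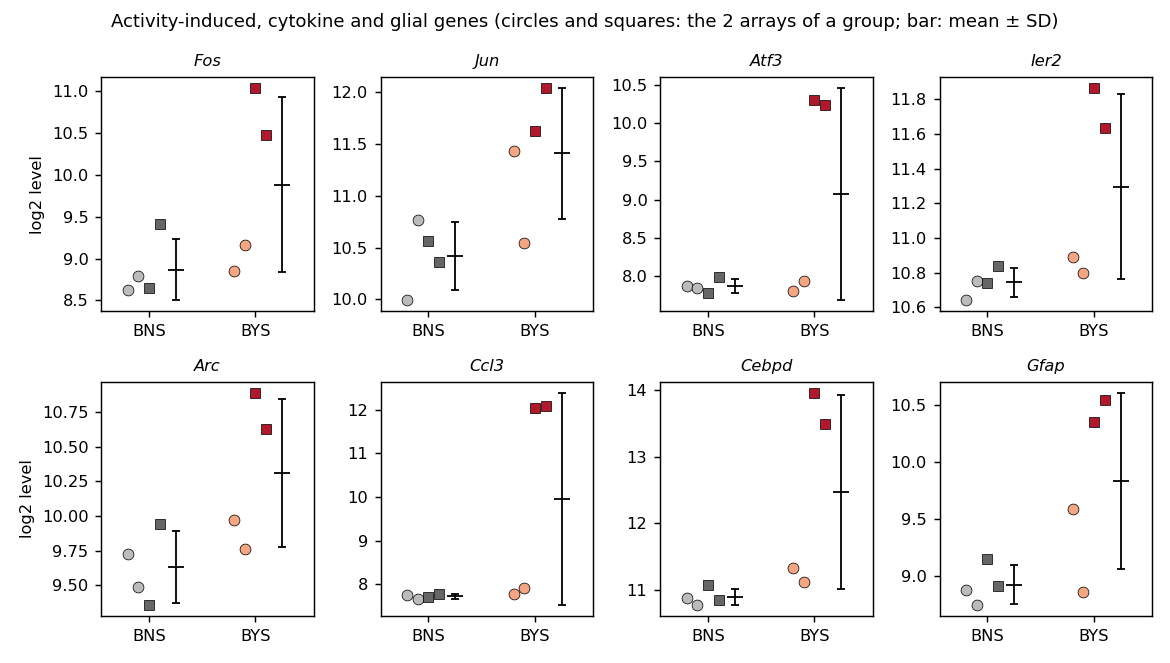
Log2 levels of 8 genes of the activity, cytokine, glucocorticoid response and astrocyte lists in each BNS and BYS sample. Circles are replicates 1 and 2, squares replicates 3 and 4 (the 2 arrays of a group), and the black marks are the mean ± SD of a group. The 2 red squares, BYS replicates 3 and 4, are the highest points in every panel.

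The mean over the 24 immediate early factors gave the same picture. Relative to the mean of the BNS samples, it was 0.07 and 0.03 in BYS replicates 1 and 2 and 0.93 and 0.85 in replicates 3 and 4, while the BNS samples lay from −0.07 to 0.08. On the array of BYS replicates 3 and 4, 23 of the 24 genes were above the BNS mean with a median of 0.60, and on the array of replicates 1 and 2, 15 of 24 with a median of 0.06. Over all genes tested, 47.6% and 55.0% were above the BNS mean on these arrays. Among the remaining conditions, the mean was within 0.04 of BNS in the 4 SNS rats, which had no prenatal betamethasone and no spasms. It ranged from −0.04 to 0.98 in the 4 rats with spasms given ACTH (BYA) and from 0.55 to 0.94 in the 4 given PMX53 (BYP). The channel of the lowest of these, BYA replicate 3, shares its array with a rat of another series, and which of the 2 rats it holds is uncertain.

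Whether the members share sequence features was asked of their promoters, as 300-base windows from RefSeq (build GRCr8) that lie mostly upstream of the start and end just past it. A window was held for 16 of the 24 immediate early factors, and among those not matched were Fos, Jun and Atf3. Letters of the cAMP response element (CRE, TGACGTCA), the site of CREB, were found on either strand in 4 of 16 promoters of immediate early factors, in 5 of 22 of activity-induced effectors and in none of 24 of cytokines, against 1.83% of all 33469 promoters. The CArG box, the site of serum response factor, was found in 4 of 16, 1 of 22 and none of 24, against 1.64% of all. The NF-kB site, searched as GGGA, any base and TTTCC on either strand, was found in none of 16, none of 22 and 3 of 24, against 0.362%. The AP-1 site was found in none of 16, none of 22 and 5 of 24, against 7.33%. The heat shock element was found in none of these promoters and in 6 of 16 of heat shock genes, against 0.798%. The glucocorticoid response element was found in none of 25 promoters of glucocorticoid response genes, against 0.0149%. Complement promoters were also searched. The promoters below are shown because each belongs to a list member with an unadjusted p under 0.05 and holds 1 of these motifs, which is in capitals: the CRE of Ier2 at chr19:40399123-40399422 on the plus strand, the CArG box of Klf6 at chr17:69458429-69458728 on the minus strand and the NF-kB site of Nfkbia, the inhibitor of NF-kB, at chr6:78597023-78597322 on the minus strand.
Ier2: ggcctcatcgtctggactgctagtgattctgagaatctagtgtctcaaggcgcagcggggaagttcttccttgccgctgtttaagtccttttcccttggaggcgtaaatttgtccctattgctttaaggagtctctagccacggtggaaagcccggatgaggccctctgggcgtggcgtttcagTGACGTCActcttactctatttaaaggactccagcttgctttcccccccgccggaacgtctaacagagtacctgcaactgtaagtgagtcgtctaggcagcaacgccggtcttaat
Klf6: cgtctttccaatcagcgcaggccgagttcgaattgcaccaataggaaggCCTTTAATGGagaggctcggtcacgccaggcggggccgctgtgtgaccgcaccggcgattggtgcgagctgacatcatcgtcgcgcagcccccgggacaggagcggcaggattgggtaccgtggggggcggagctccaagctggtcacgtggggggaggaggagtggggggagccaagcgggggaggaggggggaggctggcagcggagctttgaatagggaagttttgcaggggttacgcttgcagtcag
Nfkbia: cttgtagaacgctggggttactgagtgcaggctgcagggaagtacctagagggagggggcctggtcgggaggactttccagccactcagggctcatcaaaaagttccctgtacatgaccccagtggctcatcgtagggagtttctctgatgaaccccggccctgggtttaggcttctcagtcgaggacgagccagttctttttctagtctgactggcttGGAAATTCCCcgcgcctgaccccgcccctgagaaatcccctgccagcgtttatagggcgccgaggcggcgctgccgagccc
A match is a description of the letters and does not show that a factor binds there.

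Activity-induced effectors are the genes that act on synapses and signalling after the transcription factors. Of 26 tested, 2 had an unadjusted p under 0.05, both higher in BYS. This share of 7.69% was near the 6.92% of all genes. Arc, whose product acts at synapses, had log2 levels of 9.97, 9.76, 10.89 and 10.63 in BYS and 9.73, 9.49, 9.36 and 9.94 in BNS. BYS replicates 3 and 4 were the highest of the 8 samples and BYS replicate 1 was just above the BNS range. The difference was 0.68 (SE 0.26, adjusted p = 0.592). Trib1, a pseudokinase that regulates protein degradation, was at 8.45, 8.16, 8.60 and 8.87 in BYS, all above the 7.80 to 8.02 of BNS, with a difference of 0.62 (SE 0.20, adjusted p = 0.545). The list as a whole was above the BNS mean in 19 of 26 genes on the array of BYS replicates 1 and 2 and in 22 of 26 on the other.

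**Figure D4:**
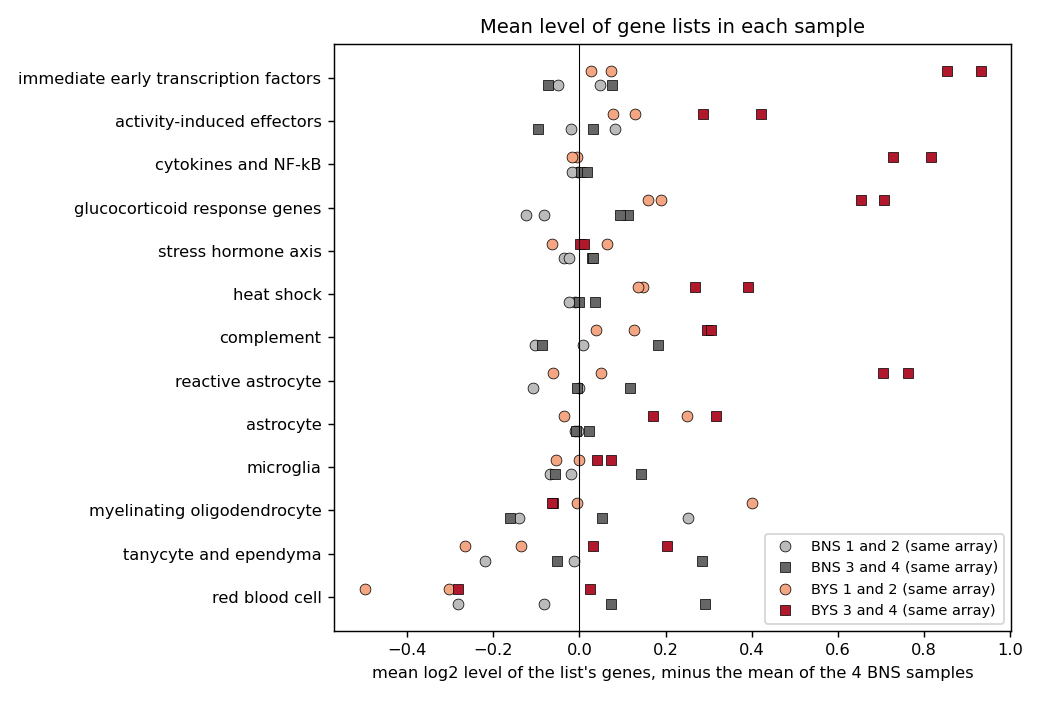
Mean log2 level of the tested genes of 13 lists in each sample, minus the mean of the 4 BNS samples (x axis, log2 units). Circles are replicates 1 and 2, squares replicates 3 and 4 (the 2 arrays of a group). In the immediate early, cytokine, glucocorticoid response and reactive astrocyte lists, BYS replicates 3 and 4 lie from 0.65 to 0.93 above BNS and BYS replicates 1 and 2 at most 0.19 above.

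The 2 BYS arrays were compared with each other over all genes. Of 17039 genes with values on both, 102 were higher by 1 log2 unit or more on the array of replicates 3 and 4 and 23 were lower. Between the 2 BNS arrays, 66 of 16991 genes were higher and 31 lower by this limit. Among the 50 genes with the largest excess on the array of BYS replicates 3 and 4, 21 were members of the immediate early, effector, cytokine, glucocorticoid response, reactive astrocyte, heat shock or oxidative stress lists. The share of these lists among all genes tested was not computed, so this count is a description only. With the array of BYS replicates 3 and 4 left out, the count of members higher in BYS at an unadjusted p under 0.05 went from 7 to 1 for immediate early factors, from 6 to 0 for cytokines, from 9 to 0 for glucocorticoid response genes, from 7 to 0 for reactive astrocyte genes, from 5 to 0 for astrocyte genes, from 6 to 1 for complement, from 5 to 1 for heat shock genes and from 2 to 0 for activity-induced effectors. With the array of BYS replicates 1 and 2 left out, the counts were 13, 15, 13, 13, 6, 8, 5 and 8 in the same order. Over all 17086 genes, the count higher in BYS by this limit also moved, from 663 to 320 without the array of BYS replicates 3 and 4 and to 771 without the other. The rats of an array cannot be told apart from the array, since each rat was hybridised once, and the numbers of spasms of single rats were not used here.

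**Figure D5:**
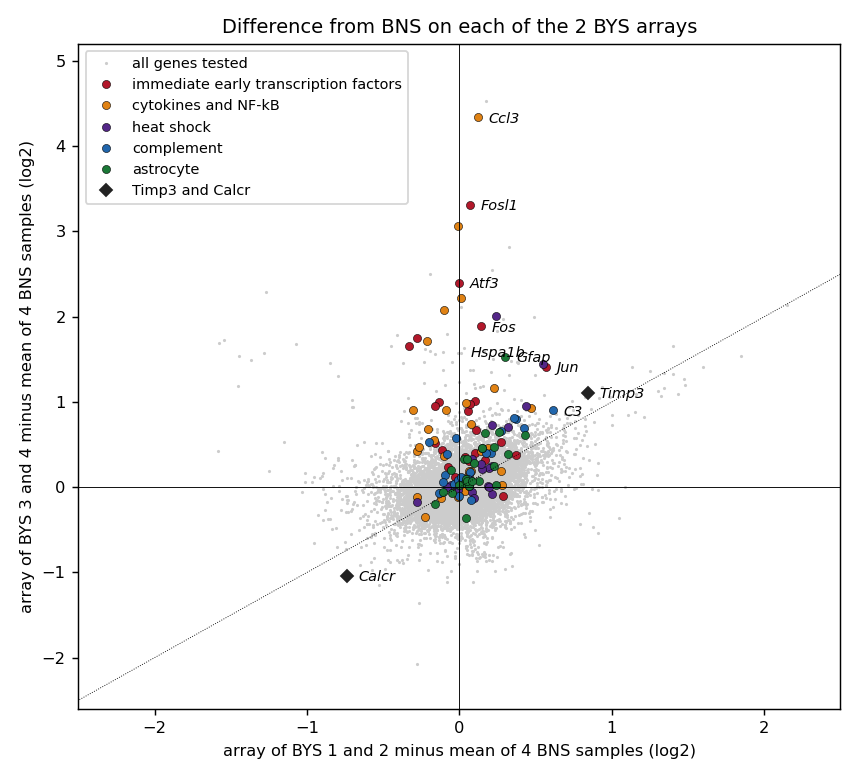
Difference from the mean of the 4 BNS samples on each of the 2 BYS arrays (log2 units, x axis replicates 1 and 2, y axis replicates 3 and 4). Grey points are all genes tested, 2 of which lie outside the axes, coloured points the members of 5 lists and black diamonds Timp3 and Calcr. The dotted line marks equal differences. Ccl3, Fosl1, Atf3 and Fos lie near 0 on the x axis and 1.89 to 4.34 above BNS on the y axis, and Timp3 lies near the dotted line.

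Cytokine and NF-kB genes carry the signals between glia, vessels and immune cells. Of 39 listed, 29 were tested, and 6 were higher and 1 lower in BYS at an unadjusted p under 0.05. Together these were 24.1% of the list, against 6.92% of all genes. Ccl3, a chemokine made by activated microglia, had the largest fitted difference of the 24 immediate early and 29 cytokine genes, at 2.23 (SE 0.80, adjusted p = 0.571). Its log2 levels were 7.79, 7.91, 12.04 and 12.08 in BYS and 7.66 to 7.77 in BNS, where 2 of 4 samples were well above background. BYS replicates 3 and 4 were 4.34 above the BNS mean and replicates 1 and 2 were 0.12 above it. Ccl4, its close relative, was at 9.60 and 9.67 in BYS replicates 3 and 4 and not well above background in any other BYS or BNS sample. Like Fosl1, Ccl4 entered the fit through another condition. Its fitted level was 2.16-fold higher in BYS (limma adjusted p = 0.652). The 95% interval of its log2 difference ran from 0.14 to 2.09. The adhesion molecule gene Icam1 was at 10.68 and 10.39 in these 2 samples against 8.22 to 8.68 in the other 6.

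Tnf and Il1b, the main early inflammatory cytokines, had a difference of 0.75 (SE 0.45) and 0.52 (SE 0.28), with p values of 0.112 and 0.0842 before adjustment in limma. Tnf was at 9.85 and 9.91 in BYS replicates 3 and 4 and between 7.95 and 8.25 in the 6 other samples. With channels scaled to a common median, the difference of Il1b turned to −0.09. Nfkbia was higher in each BYS sample, at 10.28, 10.58, 10.88 and 10.90 against 9.83 to 10.06 in BNS, a difference of 0.70 (SE 0.27, adjusted p = 0.595). Nfkb1, a subunit of NF-kB, differed by 0.28, and Tgfb1, which dampens inflammation, by 0.33, a value that turned to −0.04 under median scaling. The chemokine gene Cxcl12 was lower, by −0.29 (SE 0.12).

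Glucocorticoid response genes are targets of the receptor for corticosteroids, and Fkbp5, which lowers the receptor's affinity for the hormone, is the most used of them. Of 27 tested, 9 were higher in BYS at an unadjusted p under 0.05 (33.3%, against 3.88% of all genes) and none lower. Fkbp5 had log2 levels of 11.28, 11.58, 11.88 and 12.23 in BYS and 10.95 to 11.13 in BNS, so that all BYS samples were above BNS. The difference was 0.72 (SE 0.24, adjusted p = 0.559). Several of the 9 genes are also targets of inflammatory and stress signals, and Nfkbia, described above, is counted in the cytokine list too. Cebpd, a C/EBP factor of acute phase responses, differed by 1.58 (SE 0.57), with 11.33, 11.12, 13.96 and 13.48 in BYS and 10.79 to 11.07 in BNS. Angptl4, a regulator of lipoprotein lipase, differed by 1.13 (SE 0.40), with BYS replicates 1 and 2 at 11.53 and 11.99 and replicates 3 and 4 at 13.38 and 13.52, against 11.33 to 11.64 in BNS.

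The cell cycle inhibitor gene Cdkn1a was 1.64 above the BNS mean on the array of BYS replicates 3 and 4 and 0.03 above it on the other, and the iron-binding protein gene Lcn2 was 1.21 and 0.09 above it. Cebpb, the second C/EBP factor, had a difference of 1.24 (SE 0.48) that owed part of its size to BNS replicate 1, which was at 8.29 against 10.28 to 10.98 in the other BNS samples. The repressor gene Bcl6 differed by 0.83 and the small GTPase gene Rhob by 0.43. For Bcl6, BNS was at 10.61 and 11.04 on 1 array and at 12.00 and 11.76 on the other, which overlapped the 11.79 to 12.46 of BYS. For Rhob the 2 probes gave 0.72 and 0.14. Sgk1, a kinase gene and classical target of the receptor, had log2 levels of 9.41 to 9.78 in BYS and 9.18 to 9.59 in BNS, with a difference of 0.26 (SE 0.16).

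The stress hormone axis itself, from the releasing hormone to the receptors, held values near those of all genes. Of 19 genes tested, 1 had an unadjusted p under 0.05, the receptor coactivator gene Ncoa2, with a difference of 0.32 (SE 0.12, adjusted p = 0.572). In the fit, 8 of the 19 genes were higher and 11 lower. Crh, which encodes corticotropin-releasing hormone, had log2 levels of 9.59, 9.22, 8.66 and 8.82 in BYS and 9.39, 8.45, 8.67 and 9.18 in BNS. The groups overlapped, and the 95% interval of the difference, from −0.66 to 0.96, was wide. The glucocorticoid receptor gene Nr3c1 differed by −0.12 (interval from −0.30 to 0.07), the mineralocorticoid receptor gene Nr3c2 by −0.27 (from −0.83 to 0.29) and Pomc, the precursor of ACTH, by −0.20 (from −0.77 to 0.37). The difference of Pomc turned to 0.24 under median scaling, and a second probe of Nr3c1 gave 0.03.

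Heat shock genes encode chaperones that refold damaged proteins. Of 21 tested, 5 were higher in BYS at an unadjusted p under 0.05 (23.8%, against 3.88% of all genes) and none lower. Here both BYS arrays lay above BNS. The list mean was 0.15 and 0.14 above the BNS mean in BYS replicates 1 and 2 and 0.39 and 0.27 in replicates 3 and 4, with BNS from −0.03 to 0.04. Dnajb1, the HSP40 partner of HSP70, was at 12.60, 12.46, 13.05 and 12.79 in BYS and 12.12 to 12.31 in BNS. All BYS samples were above BNS, with a difference of 0.51 (SE 0.12, adjusted p = 0.279). Bag3, a cochaperone of selective autophagy, did not overlap between groups either, with 11.30 to 12.01 in BYS, 10.62 to 11.11 in BNS and a difference of 0.70 (SE 0.21). The HSP70 gene Hspa1b was at 8.55, 9.92, 10.01 and 10.26 in BYS and 8.55 to 8.83 in BNS, and BYS replicate 1 alone was at the BNS level. It differed by 1.00, and it has a near-identical copy, Hspa1a, whose RNA the probe may also bind. The small heat shock protein genes Hspb1 and Hspb8 differed by 1.13 and 0.47.

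Oxidative stress genes defend against reactive oxygen. Of 18 tested, 2 were higher in BYS at an unadjusted p under 0.05 (11.1%, against 3.88% of all genes). Srxn1, a sulfiredoxin that reactivates peroxiredoxins, was at 11.77, 11.75, 12.97 and 12.75 in BYS, each above the 11.17 to 11.63 of BNS (difference of 0.93, SE 0.26, adjusted p = 0.433). Hmox1, the haem-degrading enzyme, was 1.58 above the BNS mean on the array of BYS replicates 3 and 4 and 0.01 above it on the other array.

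Astrocytes take up glutamate and potassium, and reactive astrocytes raise GFAP and secreted factors. Of 24 astrocyte genes, 5 were higher at an unadjusted p under 0.05 (20.8%, against 3.88% of all genes) and none lower. Gfap, the intermediate filament of astrocytes, was at 9.59, 8.86, 10.36 and 10.55 in BYS and 8.74 to 9.15 in BNS, and BYS replicate 2 was the only BYS sample in the BNS range. The difference was 0.92 (SE 0.30, adjusted p = 0.545), and its 2 probes gave 1.13 and 0.70. The water channel gene Aqp4 differed by 0.45, with 3 probes at 0.02, 0.66 and 0.68, the orphan receptor gene Gpr37l1 by 0.52, the bicarbonate transporter gene Slc4a4 by 0.36 (probes at 0.18 and 0.53) and the chaperone gene Clu by 0.30. For Gpr37l1, BNS was at 13.36 and 13.58 on 1 array and at 14.30 and 14.34 on the other, which overlapped the 14.02 to 14.63 of BYS. Aldh1l1, a marker of all astrocytes, differed by 0.13 (interval from −0.20 to 0.47). Of 24 genes of reactive astrocytes, 7 were higher by this limit (29.2%) and none lower. Of the 7, 4 are also in other lists described here (Gfap, Fkbp5, Hspb1 and Lcn2).

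The remaining members were the lipopolysaccharide co-receptor gene Cd14, the growth factor gene Fgf2 and the hyaluronan receptor gene Cd44, with differences of 1.14, 0.78 and 0.67. Each was higher in BYS replicates 3 and 4 than in the other 6 samples, with Cd14 at 10.26 and 10.95 against 8.17 to 8.56. Timp1 was at 13.14 and 12.92 in these 2 samples, against at most 10.97 in BYS replicates 1 and 2 and 11.04 to 11.39 in BNS, so that its overall difference of 0.69 (SE 0.47) became −0.41 with the array of replicates 3 and 4 left out.

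Microglia are the resident macrophages of the brain, and their marker list did not shift as a whole. Of 21 genes, 10 had a positive and 11 a negative difference, and 4 were higher and 2 lower at an unadjusted p under 0.05. Together these were 28.6% of the list, against 6.92% of all genes. Cx3cr1, the fractalkine receptor and a marker of resting microglia, was at 10.44, 10.59, 10.55 and 11.33 in BYS and 11.02, 11.10, 11.35 and 11.41 in BNS. BYS replicates 1 to 3 were below all BNS samples and BYS replicate 4 was within their range, with a difference of −0.49 (SE 0.16, adjusted p = 0.545). Olfml3, secreted by microglia, differed by −0.25, a value that turned to 0.05 under median scaling. On the other side, the integrin gene Itgam differed by 0.57 (0.26 by a second probe, with an unadjusted p of 0.189), the signalling adaptor gene Tyrobp by 0.47, the nucleotide receptor gene P2ry13 by 0.40 and the lineage factor gene Spi1 by 0.25. P2ry13 and Spi1 turned to −0.02 and −0.25 under median scaling. Csf1r, the receptor that microglia need to survive, differed by −0.17 (interval from −0.43 to 0.09), and the mean log2 level of Aif1, the gene of the marker IBA1, was 12.02 in BYS and 12.05 in BNS.

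Complement genes are supplied in the brain by microglia and astrocytes, and the list median was 0.06 above the BNS mean on the array of BYS replicates 1 and 2 and 0.28 above it on the other. Of 22 tested, 6 were higher in BYS at an unadjusted p under 0.05 (27.3%, against 3.88% of all genes) and none lower. One of the 6 is Clu, which also stands among the astrocyte genes. C1qa, a chain of the starter protein C1q, was at 12.82, 12.38, 12.87 and 12.87 in BYS and 12.20, 12.11 and 12.22 in BNS, with 1 BNS value left out as an outlier spot. All BYS samples were above the 3 BNS values, and the difference of 0.58 (SE 0.11) had an adjusted p of 0.114. With single samples left out, the limma adjusted p ranged from 0.0182, without BYS replicate 2, to 0.356. The C1q chain genes C1qb and C1qc differed by 0.59 (SE 0.21) and 0.58 (SE 0.16), and C2, the protease of the classical pathway, by 0.46 (SE 0.15), with 0.59 and 0.34 from its 2 probes. C3, the central complement protein, was at 9.08, 8.87, 9.42 and 9.10 in BYS and 8.16 to 8.55 in BNS, a difference of 0.76 (SE 0.27, adjusted p = 0.567) with no overlap. The BYS array of replicates 1 and 2 was 0.61 above the BNS mean for C3, 0.43 for C1qa and 0.36 for C1qc.

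Myelin and ventricle-lining cells had no list member with an unadjusted p under 0.05. Of 24 myelin genes, among them Mbp and Mog (mean log2 levels of 9.43 and 9.14 in BNS), 17 had a positive and 7 a negative difference. The myelin list mean was 0.40 above BNS in BYS replicate 1 and from −0.06 to −0.01 in the other BYS samples. Tanycytes and ependyma, the cells that line the third ventricle beside the arcuate nucleus, had 10 positive and 14 negative differences among 24 genes. Their list mean was −0.14 and −0.27 in BYS replicates 1 and 2, 0.03 and 0.20 in replicates 3 and 4 and from −0.22 to 0.28 in BNS. Of 14 genes of oligodendrocyte progenitors, Bmp4, a signal that favours astrocytes over oligodendrocytes, was the only one with a p under 0.05, at 10.79, 10.35, 10.24 and 10.66 in BYS, all above the 9.64 to 10.20 of BNS (difference of 0.62, SE 0.17, adjusted p = 0.442).

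Neuronal peptide and receptor genes had few members past an unadjusted p of 0.05, which 6.92% of all genes passed. Of 22 genes of arcuate peptides and their processing, 1 had an unadjusted p under 0.05, the amidating enzyme gene Pam (0.54, SE 0.23), and of 19 arcuate receptors and transcription factors 1, the NPY receptor gene Npy5r (−0.29, SE 0.12). Of 7 NMDA receptor subunit genes, Grin2a differed by 0.83 (SE 0.24, adjusted p = 0.489), with 8.56 to 8.89 in BYS and 7.05, 7.54, 8.58 and 8.44 in BNS. The spread lay in BNS, where replicates 1 and 2, on 1 array, were low and replicates 3 and 4 were near the BYS level, overlapping it at 8.58. Gabrg1, a GABA receptor subunit gene, differed by 0.67 (SE 0.23). Of 8 genes of the Pnma family and its relatives, 3 had an unadjusted p under 0.05, namely Pnma2, Arc and Pnma8b, and Pnma8b (0.65, SE 0.26) overlapped between groups.

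Haemoglobin and other red blood cell genes report blood left in the tissue. All 10 tested had a negative difference, 2 of them at an unadjusted p under 0.05 (3.04% of all genes were lower by this limit). With channels scaled to a common median, however, 5 of the 10 were positive and the list median was −0.05. The haemoglobin gene Hba-a3 was at 8.65 to 9.01 in BYS and 9.32 to 9.51 in BNS, a difference of −0.60 (SE 0.19), and Ahsp, which stabilises alpha globin, differed by −0.48 (SE 0.21). The list mean was 0.30 and 0.50 below the BNS mean in BYS replicates 1 and 2, 0.02 above it in replicate 3 and 0.28 below it in replicate 4, with BNS from −0.28 to 0.29. The BYS samples stood in the same order for this list as for the cytokine list (replicates 3, 4, 1 and 2 from high to low), though replicates 4 and 1 were close in this list. In the BYP rats, the cytokine mean was from 0.60 to 1.06 and the red blood cell mean from −0.58 to −0.39, relative to BNS. The part of blood in the other results was not tested.

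Beyond the lists, genes were named by size among those with no overlap between groups, an unadjusted p under 0.01 and detection in all 8 samples. A gene symbol in the reference was also required, which 11251 of the 17086 genes tested had. Klhl30 met the other rules but not this one. There were 40 such genes higher in BYS and 62 lower, and the 12 with the largest differences in each direction were taken. Calcr, the calcitonin receptor, which also forms receptors for amylin, had the largest difference among the lower genes. Its log2 levels were 13.36, 13.44, 12.96 and 13.25 in BYS and 13.87, 14.46, 14.11 and 14.13 in BNS. All 4 BYS samples were below BNS and both BYS arrays were (by −0.74 and −1.04), and the difference of −0.89 (SE 0.15) had an adjusted p of 0.0612. The other 11 lower genes were Pde6d, a chaperone of prenylated proteins (−0.77), the olfactory receptor gene Olr1143 (−0.63), Tmem104 (−0.60), the haemoglobin gene Hba-a3, Tsbp1 (−0.55), the organic anion transporter gene Slco2b1 (−0.52), Lrwd1, part of the origin recognition complex (−0.49), the engulfment adaptor gene Gulp1 (−0.49), Pstk, an enzyme of selenocysteine synthesis (−0.49), Doxl1 (−0.49) and the lipase inhibitor gene G0s2 (−0.47).

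Among the 12 higher genes, Timp3, Pnma2, Srxn1, Bag3 and Fkbp5 are described above. Cd74, the invariant chain of MHC class II made by microglia and other antigen-presenting cells, was at 9.44, 9.35, 9.54 and 9.73 in BYS and 8.53, 8.24, 8.65 and 8.86 in BNS. Its difference of 0.94 (SE 0.24, adjusted p = 0.325) was of like size on both BYS arrays, 0.82 and 1.06. Spry2, a feedback inhibitor of growth factor signalling that growth factors induce, was at 10.35, 9.74, 10.60 and 10.24 in BYS and 9.54 to 9.65 in BNS (0.64, SE 0.14, adjusted p = 0.167). Otulinl (0.75), Bmyc (0.73), the transcriptional repressor gene Nacc2 (0.67) and Rp9 (0.65) made up the list together with the aldehyde dehydrogenase gene Aldh3a1 (1.02). Aldh3a1 differed more between the 2 BNS arrays, at 8.20 and 8.23 against 6.35 and 6.28, than between BYS and the first of them, and its difference turned to −0.10 with the signals as processed by the scanner software.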

How the data were processed

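RNA of the arcuate nucleus was read on two-colour rat arrays, and each Cy3 or Cy5 channel was taken as 1 sample. The authors deposited, for each array, the output of Agilent Feature Extraction (version 10.7.3.1 in the submitters' processing notes). Per the file headers, the mean spot and local background signals are intensities without normalization, and the processed signals are intensities background-subtracted and dye-normalized by the software. The flags deposited with them have the values 0 and 1. A further 82 columns of values belong to samples of another series and were not used.

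The background was corrected per channel with limma's normexp method (offset 50), followed by quantile normalization of all 20 channels and a log2 transform. Outlier spots (1.18% of values) were left out. Of 30367 probes, 19883 were kept, being well above background in at least 0.5 of the spots of all 4 samples of a group. They gave 17086 genes, for each of which the probes without a missing value were averaged. Where a gene had no such probe, the probe with the fewest missing values was used. Where a gene had a missing value, its contrast used the remaining samples (787 genes).

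BYS was compared with BNS by two-sided tests in limma (lmFit and eBayes) over all 20 samples in 5 groups, with the dye as a covariate and Benjamini-Hochberg adjustment over all genes. The script was tested on simulated data with independent noise in each channel, which does not test the effect of sharing an array. The number of arrays limits the precision. Lists were described by counts and medians. For genes that no BNS sample measured well above background, a bound was computed per channel after loess and Aquantile normalization, from the mean of the bright group and the lowest signals well above background. For each such gene it equalled the plain difference of the group means, so no bound is given. These differences can carry dye bias.

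The members and lists were chosen with earlier results of these data known. Named were the called genes, list members with an unadjusted p under 0.05 or defining a list, and up to 12 genes in each direction among those with no overlap, an unadjusted p under 0.01, detection in all 8 samples and a symbol in the reference. Promoter sequences came from RefSeq. The work was done in R (4.3.3) with limma (3.58.1) and statmod (1.5.0). Alternatives covered scaling, background, dim probes, dye, array, replicate block, single samples and the methods' test.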

Additional observations from a re-analysis of the deposited data

Results flagged for a closer look

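Single samples that stood far from the other 3 of their group are given here for the genes and lists described above. Of 279 groups of 4 values examined, 15 held such a sample (5.38%), and chance alone gives about 1 in 20 (5%). The values are mean log2 levels.

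Among complement genes, C1qa was 12.4 in BYS replicate 2 against 12.8 to 12.9 in the other BYS samples, C1qc was 9.85 in BNS replicate 4 against 9.53 to 9.54, and C2 was 9.68 in the same sample against 9.20 to 9.23. Among microglial genes, Cx3cr1 was 11.33 in BYS replicate 4 against 10.44 to 10.59, and P2ry13 was 7.66 in BNS replicate 3 against 7.94 to 7.99. Tgfb1 was 7.86 in BYS replicate 2 against 8.33 to 8.40, and Gulp1 was 8.94 in BYS replicate 4 against 9.19 to 9.23. Fosl1 was 7.17 in BNS replicate 1 against 7.40 to 7.44, with no BNS sample well above background. Sparc, a matrix protein of glia and vessels, was 16.49 in BNS replicate 1 against 16.64 to 16.67. Tas2r110 was 7.07 in BNS replicate 3 against 7.28 to 7.29, and 8.33 in BYS replicate 3 against 7.78 to 7.87.

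Of the list means, that of astrocyte genes was 12.61 in BNS replicate 4 against 12.58 in the other BNS samples, that of endoplasmic reticulum stress genes 11.23 in BYS replicate 3 against 11.08, that of myelinating oligodendrocyte genes 10.32 in BYS replicate 1 against 9.86 to 9.92, and that of oligodendrocyte progenitor genes 10.01 in BNS replicate 1 against 9.90 to 9.92.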

How the results depend on the processing

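The 5 genes called became 47 with channels scaled to a common median, a setting that also moved the median of all genes by 0.147, 11 with the processed signals, 3 with probes well above background in all 8 samples and 1 with loess and Aquantile normalization. They became 0 with quantile normalization of the 8 channels alone (1573 genes at an unadjusted p under 0.05 in limma), 0 with the 8 samples fitted alone (1534), 0 with the array as a random block (554) and 0 by the methods' t-test after Benjamini-Hochberg adjustment (the methods' count before it was 1507). Leaving out single samples gave 0 to 11 calls. Arrays left out whole, alternatives chosen after seeing the data, gave 69 calls without BYS replicates 1 and 2, 8 without BYS replicates 3 and 4, 41 without BNS replicates 1 and 2 and 132 without BNS replicates 3 and 4. The cause was not tested. The 1183 genes at an unadjusted p under 0.05 became 3375 with median scaling, 1779 without a filter on dim probes and 716 without the array of BYS replicates 3 and 4. With a replicate block in place of the dye, 5 genes were called and 1323 had an unadjusted p under 0.05. Samples with the same number did not deviate together (residual correlations from −0.18 to 0.03), so the numbers were not taken as pairs.

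The median of the stress hormone axis, relative to all genes, ranged from −0.0569 to 0.0357 with single samples left out and was 0.0297 without the array of BYS replicates 3 and 4, and that of astrocyte genes was 0.36 with median scaling. Without that array, the log2 differences turned to −0.00095 for Atf3, −0.33 for Junb, −0.14 for Egr1, −0.28 for Egr4, −0.41 for Timp1, −0.10 for Icam1 and −0.21 for Tnf. With median scaling they turned to 0.24 for Pomc, 0.0459 for Olfml3, −0.0182 for P2ry13, −0.25 for Spi1, −0.0395 for Tgfb1 and −0.0900 for Il1b. Crh ranged from −0.0481 to 0.33 with single samples left out, was below 0 without BYS replicate 1 or BNS replicate 2, and was −0.18 without the array of BYS replicates 1 and 2, where Pomc was 0.13. Probe 2 of Nr3c1 gave 0.0267, and the processed signals gave −0.10 for Aldh3a1. Over the named genes and all alternatives, 2235 values kept their direction and side of the threshold, 41 newly passed it and 58, all of the 5 called genes, no longer did.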

Other observations

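Values are given for 5 further genes chosen after they were seen, of which Ccl2 belongs to the cytokine list and the others to none. The microglia list had a median of −0.0025 and 10 of 21 genes above the BNS mean on the array of BYS replicates 3 and 4. Spp1, which encodes the secreted matrix protein osteopontin, had log2 levels of 8.24, 8.79, 13.31 and 12.42 in BYS replicates 1 to 4 and 8.22, 8.24, 8.61 and 8.29 in BNS. Lgals3, which encodes the lectin galectin-3, was at 11.18, 11.62, 13.42 and 14.03 in BYS and 10.79, 11.14, 11.57 and 11.23 in BNS. Gpnmb, a glycoprotein of macrophages, was at 9.12, 9.16, 10.63 and 10.83 in BYS and 8.95, 8.79, 8.72 and 9.09 in BNS. In Spp1, Lgals3 and Gpnmb, BYS replicates 3 and 4 lay above the other 6 samples.

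The chemokine gene Ccl2, with an unadjusted p of 0.0848 in limma, was at 7.42, 7.54, 10.79 and 10.32 in BYS and 7.48, 7.45, 7.40 and 7.63 in BNS. Bcl3, a nuclear cofactor of NF-kB, was at 8.14, 8.01, 10.89 and 10.65 in BYS and 8.13, 8.18, 8.52 and 8.26 in BNS. These genes were chosen for their difference between the 2 BYS arrays, so the values are a description.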
